A study of Mus musculus with 6 samples.

Results

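The endothelin system was described here through 6 genes, taken from the deposited table of 22556 genes by symbol: the ligand genes Edn1 and Edn3, the receptor genes Ednra and Ednrb, and the converting enzyme genes Ece1 and Ece2. All 6 were listed, and all 6 were among the 11096 genes that reached a mean of 1 RPKM over the libraries and were tested. RPKM is a read count scaled by transcript length and by the mapped reads of the library, so levels of different genes can be set side by side. Hearts of wild-type mice were sampled after infusion of angiotensin II (Ang II), the vasoconstrictor peptide of the renin-angiotensin system, from a minipump under the skin at 1000 ng per kg per min. Hearts were taken at 0 days (the control group), 7 days or 28 days, with 2 libraries in each of the 3 groups. Strain, age, sex and control treatment were not given in the sources used here. Nothing states whether the 2 libraries of a group come from separate mice, so the p-values measure only the spread between these samples, and that spread may be technical.

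Endothelins are short vasoconstrictor peptides cut from longer precursors. The proprotein convertase furin and related enzymes release an inactive big endothelin, and the endothelin-converting enzymes, membrane metalloproteases, cut it to the active peptide. Endothelin-1 acts on the A receptor of smooth muscle and heart muscle cells, which couples to contraction and growth, and on the B receptor, which is abundant on endothelium, triggers release of nitric oxide and clears the peptide. Endothelin-3 prefers the B receptor, and this pair is best known for its role in neural crest cells that give rise to enteric neurons and melanocytes. In vessels and heart, Ang II is a classical inducer of the endothelin-1 gene.

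The start regions are shown for the 2 ligand genes only. Both genes passed as higher at 7 days, as did Ednrb and Ece2. Each run covers 250 bases before to 50 bases after the RefSeq start on GRCm38.p6, a build other than the mm8 and mm9 named for these files. Capitals mark any match, on either strand, to 4 motifs. One was AGATAA, which GATA factors bind. Another was TGACTAA, a variant AP-1 site, searched beside the usual AP-1 site (TGANTCA). The last was the GC box (GGGCGG).
Edn1, chr13:42301226-42301525, plus strand: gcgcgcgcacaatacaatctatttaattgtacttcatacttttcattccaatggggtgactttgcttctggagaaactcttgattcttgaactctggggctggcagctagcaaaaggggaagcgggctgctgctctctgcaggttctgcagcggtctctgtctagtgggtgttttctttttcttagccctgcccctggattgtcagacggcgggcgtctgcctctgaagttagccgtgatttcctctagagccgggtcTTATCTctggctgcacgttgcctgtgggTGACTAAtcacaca
Edn3, chr2:174760369-174760668, plus strand: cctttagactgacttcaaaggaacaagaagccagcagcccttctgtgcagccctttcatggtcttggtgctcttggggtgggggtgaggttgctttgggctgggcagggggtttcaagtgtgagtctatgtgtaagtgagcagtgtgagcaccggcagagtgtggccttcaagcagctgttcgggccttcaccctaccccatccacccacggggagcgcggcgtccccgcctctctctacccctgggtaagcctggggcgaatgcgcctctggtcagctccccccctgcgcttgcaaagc
In the Edn1 window the capitals are TTATCT, the reverse complement of AGATAA, starting at base 9 after the start, and TGACTAA, starting at base 37 (the start base is 1). The Edn3 window held none of the 4 motifs. RefSeq listed 9 start windows for the 6 genes, 4 of them for Ece1. GGGCGG was in 4 of the 9, namely 3 of Ece1 and that of Ece2, and TGANTCA was in 0. Of 32851 windows of the same length, 11.2% held AGATAA, 7.81% TGANTCA, 2.35% TGACTAA and 35.7% GGGCGG. These 4 motifs were kept after 14 had been searched in the windows and the matches seen. Of the other 10, the E box CACGTG was in 1 window of Ece1 and the rest were in 0 of the 9. A match is a string of letters and not a measured binding site.

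After 7 days of Ang II, 4 of the 6 genes were higher than in the controls: Edn3, Edn1, Ednrb and Ece2. After 28 days the increase of Edn3 passed the test, and Ece2 was lower than at 7 days and near its control level. Edn3 reached the level needed for testing only through the infused hearts, and with no filter on low values its adjusted p in limma was 0.0691 at 7 days and 0.0743 at 28 days, so it was not called. In RNA of a mixed tissue, more cells of a type and more RNA per cell cannot be told apart. Ednra and Ece1, the more abundant receptor and the more abundant enzyme, did not pass in any comparison. The test was limma on log2(RPKM + 0.5), fitted over all libraries, with p-values adjusted over all tested genes by Benjamini-Hochberg and a threshold of 0.05. At 7 days 13.2% of all tested genes passed as higher, at 28 days 2.87%, and 4.26% passed as lower at 28 than at 7 days. All of these calls lay close to the threshold, and leaving out either control library ended all of them except that of Ednrb at 7 days without control replicate 2. With 2 libraries a group, an exact permutation test of 2 against 2 cannot give a two-sided p below 0.333.

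**Figure D1:**
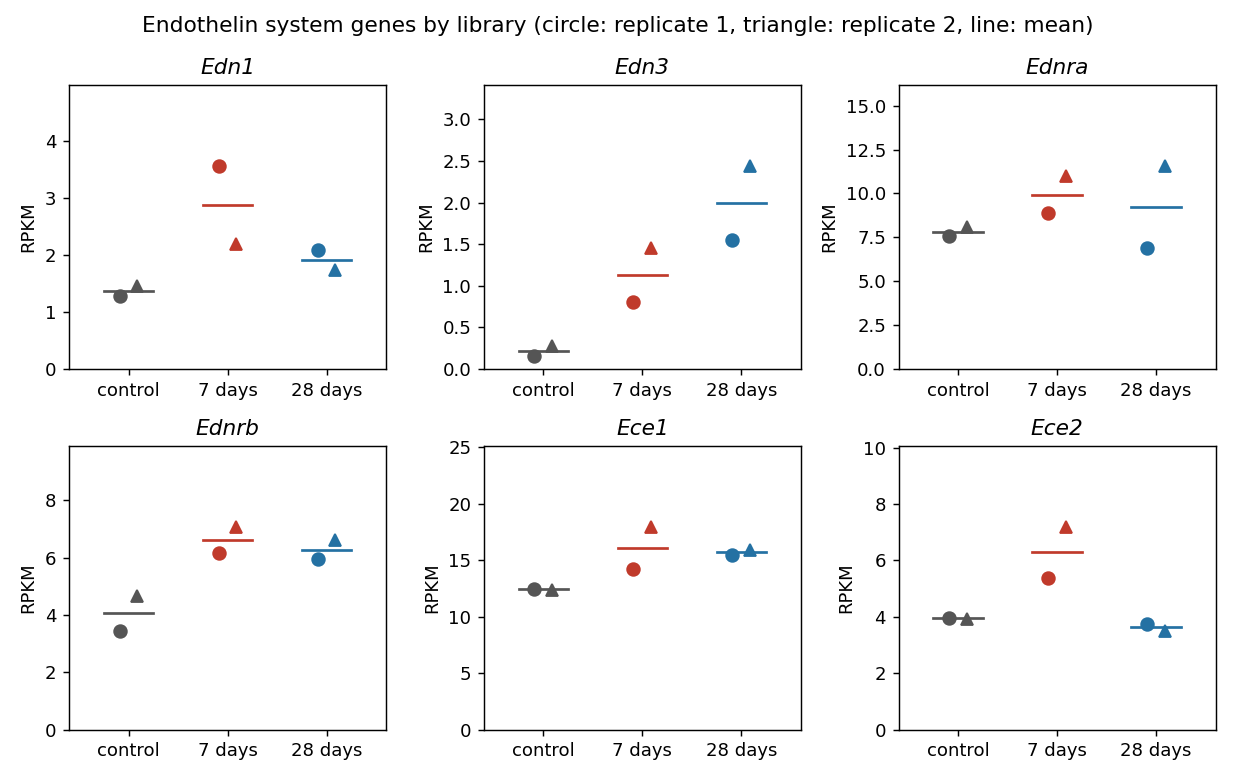
RPKM (vertical axes, each starting at 0) of the 6 genes in the control, 7 day and 28 day groups. Circles are replicate 1, triangles replicate 2 and lines the mean of 2 libraries. At 7 days both libraries lie above both controls for every gene, as for 48.6% of all tested genes. Values run from 0.804 and 1.46 against 0.161 and 0.281 RPKM for Edn3 to 8.88 and 11.0 against 7.57 and 8.07 RPKM for Ednra.

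Edn3, the gene of endothelin-3, had the largest change of the 6. It was listed at 0.161 and 0.281 RPKM in control replicates 1 and 2, at 0.804 and 1.46 RPKM at 7 days, and at 1.55 and 2.44 RPKM at 28 days. All 4 libraries of infused hearts lay above both controls, as for 48.6% of tested genes at 7 days and 28.8% at 28 days. Both 28 day libraries lay above both 7 day libraries, as for 9.12% of tested genes. The mean was 0.221 ± 0.0851 RPKM in controls (SD, n = 2), 1.13 ± 0.462 at 7 days and 2.00 ± 0.628 at 28 days, which is 5.12 and 9.03 times the control mean. On the log2(RPKM + 0.5) scale, which understates changes of low genes, the increase was 1.15 at 7 days (SE 0.27, limma adjusted p = 0.0332). At 28 days it was 1.77 (SE 0.27, limma adjusted p = 0.0210). Only the infused hearts brought Edn3 over the filter on low values, so the filter used the difference that was tested. With no filter Edn3 was not called at 7 or 28 days (limma adjusted p = 0.0691 and 0.0743). Between 28 and 7 days the difference was 0.62 and missed the threshold (limma adjusted p = 0.237). With a pseudocount of 0.1 in place of 0.5, the log2 changes were 1.91 and 2.70.

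The low values of Edn3 rest on few reads. RPKM of low genes fall on steps that are whole multiples of what 1 read is worth, and after correction for depth the Edn3 values were whole multiples within 0.00564 of a read. The implied reads were 6 and 11 in the controls, 35 and 62 at 7 days, and 57 and 81 at 28 days, or a common multiple of these. Exact Poisson 95% intervals, which cover counting error only, ran from 2.2 to 13.1 and from 5.49 to 19.7 reads in the controls. They ran from 24.4 to 48.7 in 7 day replicate 1, the lowest of the infused libraries. In RPKM, the upper bounds were 0.35 and 0.503 in the controls and the lowest lower bound after infusion was 0.56, so these intervals did not overlap.

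**Figure D2:**
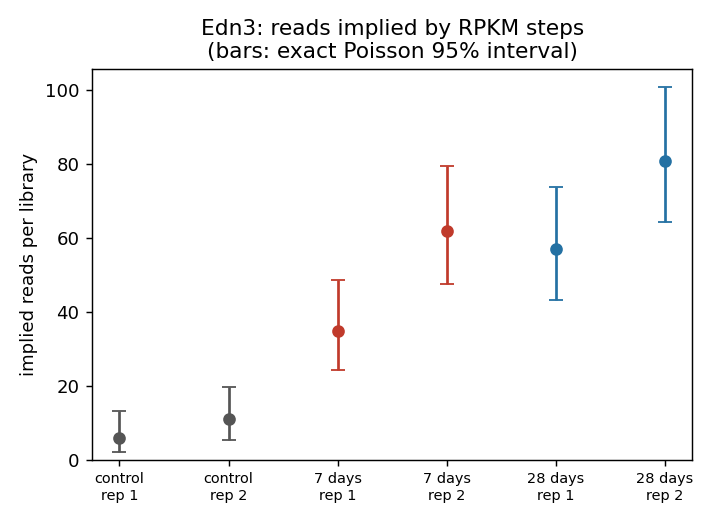
Reads of Edn3 implied by the steps of its RPKM values (vertical axis, from 0) in each of the 6 libraries, with exact Poisson 95% intervals as bars. The controls stand at 6 and 11 reads and the infused hearts between 35 and 81.

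Edn1, the gene of endothelin-1, was the other ligand gene that rose at 7 days. It was at 1.27 and 1.45 RPKM in the controls, 3.56 and 2.19 RPKM at 7 days, and 2.08 and 1.74 RPKM at 28 days. Replicate 1 was the higher of the 7 day libraries, unlike for the other 5 genes, where replicate 2 was higher. The mean went from 1.36 ± 0.121 to 2.87 ± 0.966 RPKM at 7 days (n = 2; log2 change 0.83, SE 0.21, limma adjusted p = 0.0420). At 28 days the mean was 1.91 ± 0.239 RPKM, a log2 change of 0.37 against the controls (limma adjusted p = 0.354, not past the threshold). Both 28 day libraries still lay above both controls, as for 28.8% of tested genes, and below both 7 day libraries, as for 41.2%. From 7 to 28 days the difference of -0.46 missed the threshold as well (limma adjusted p = 0.263). Without 7 day replicate 1 the increase at 7 days was 0.53 (limma adjusted p = 0.154), and without replicate 2 it was 1.13 (limma adjusted p = 0.0434). With the longest GENCODE transcript of Edn1, 2139 bases on GRCm38, these levels correspond to about 33 and 40 reads in the controls, 109 and 66 at 7 days and 54 and 41 at 28 days.

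The third ligand gene, Edn2, whose peptide is known mainly from gut and ovary, was near the limit of detection. It was listed at 0 in control replicate 1, which allows up to 3 reads or 0.209 RPKM, and its values elsewhere were those of 1 or 2 reads per library. It was not tested.

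The B receptor gene Ednrb rose at 7 days. It was at 3.44 and 4.66 RPKM in the controls, 6.16 and 7.07 RPKM at 7 days, and 5.95 and 6.60 RPKM at 28 days. Every library of infused hearts lay above both controls, as for 48.6% of tested genes at 7 days and 28.8% at 28 days. The mean went from 4.05 ± 0.868 to 6.61 ± 0.647 RPKM at 7 days (n = 2; log2 change 0.66, SE 0.16, limma adjusted p = 0.0356). At 28 days it was 6.28 ± 0.466 RPKM, where the log2 change of 0.59 (SE 0.16) was nearly as large but missed the threshold (limma adjusted p = 0.0900). Its difference between 28 and 7 days was -0.07 (SE 0.16, limma adjusted p = 0.834). The 2 controls differed more for Ednrb than for the other receptor, and the 7 day increase was 0.46 against control replicate 2 alone and 0.85 against control replicate 1 alone.

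The A receptor gene Ednra was the more abundant receptor in every library and did not pass at either time. It was at 7.57 and 8.07 RPKM in the controls, 8.88 and 11.0 RPKM at 7 days, and 6.87 and 11.6 RPKM at 28 days. The 28 day libraries held both the lowest and the highest value of the gene. Its log2 change was 0.32 at 7 days (SE 0.23, limma adjusted p = 0.372) and 0.18 at 28 days (SE 0.23, limma adjusted p = 0.678), and the latter was -0.17 without 28 day replicate 2.

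The enzyme genes took different courses. Ece1, the main endothelin-converting enzyme of endothelium, was at 12.5 and 12.4 RPKM in the controls, 14.2 and 18.0 RPKM at 7 days, and 15.5 and 15.9 RPKM at 28 days. Both infused groups lay above the controls with no overlap, as for 48.6% of tested genes at 7 days and 28.8% at 28 days. The log2 changes of 0.35 at 7 days (SE 0.13, limma adjusted p = 0.111) and 0.32 at 28 days (SE 0.13, limma adjusted p = 0.201) did not pass. Ece2, a related enzyme that works at acidic pH inside cells, was at 3.97 and 3.94 RPKM in the controls. It was at 5.40 and 7.19 RPKM at 7 days, and 3.76 and 3.51 RPKM at 28 days. Its 7 day libraries lay above both controls, as for 48.6% of tested genes, and above both 28 day libraries, as for 41.2%. Its mean went from 3.95 ± 0.0259 to 6.29 ± 1.27 RPKM at 7 days (n = 2; log2 change 0.60, SE 0.15, limma adjusted p = 0.0393). At 28 days it was 3.64 ± 0.179 RPKM, with a log2 change of -0.11 from controls (limma adjusted p = 0.715). The decrease from 7 to 28 days was tested on its own and passed, at -0.70 (SE 0.15, limma adjusted p = 0.0479). That call ended when any 1 of the 6 libraries was left out (limma adjusted p from 0.0599 to 0.213). In RefSeq, Ece2 overlaps a readthrough gene, Eef1akmt4-ece2, and Ednra, Ednrb and Ece1 overlap long noncoding RNA genes. The counting is not stated to use strand, so reads of such neighbours cannot be told apart from those of the 4 genes.

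**Figure D3:**
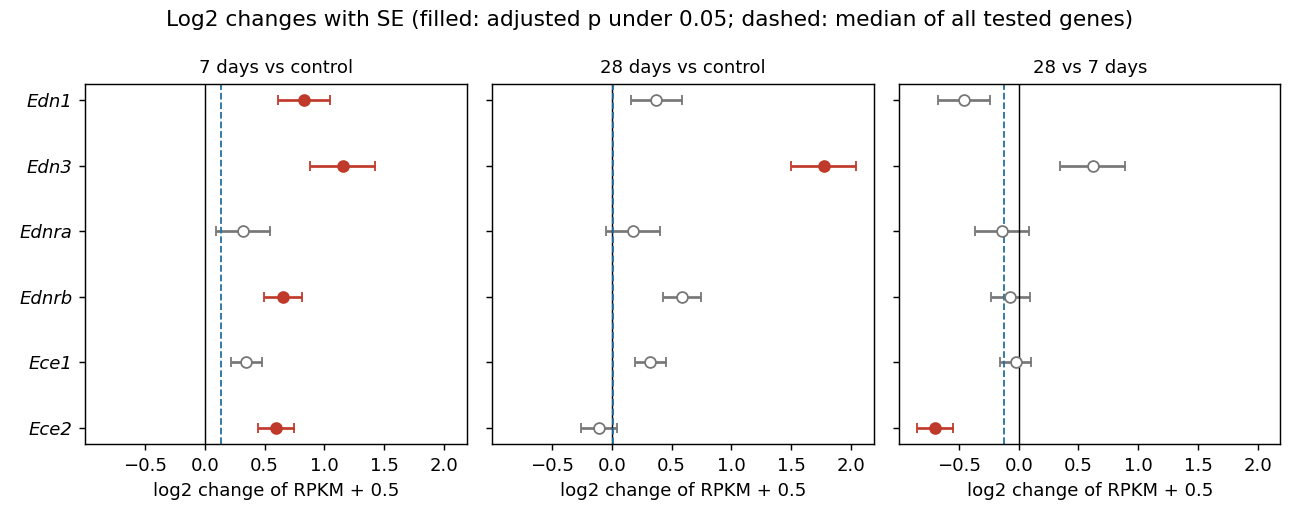
Log2 change of RPKM + 0.5 (horizontal axes) of the 6 genes in the 3 comparisons, with SE as bars. Filled points passed at an adjusted p under 0.05, the solid line marks 0 and the dashed line the median of all tested genes, 0.14, 0.01 and -0.12 from left to right. Edn3 lies farthest right at 7 and 28 days, at 1.15 and 1.77, and Ece2 farthest left at 28 against 7 days, at -0.70.

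Counted as a group, 4 of 6 passed as higher at 7 days, against 13.2% of all tested genes. At 28 days 1 of 6 passed as higher, against 2.87%, and 1 of 6 as lower than at 7 days, against 4.26%. Edn3, which only its levels after infusion brought into the test, is among the counts at 7 and 28 days. The 6 genes were chosen with earlier results of these data known, so these counts and the medians that follow are descriptions only. The median log2 change of the 6 was 0.63 at 7 days against 0.14 over all tested genes, 0.35 against 0.01 at 28 days, and -0.10 against -0.12 between 28 and 7 days. Libraries of the 7 day group and the controls did not overlap for 6 of 6 genes, all higher, as for 48.6% of all tested genes. Between 28 days and controls, libraries did not overlap for Edn1, Edn3, Ednrb and Ece1, all higher, against 28.8% of all genes, and for Ece2, lower, against 25.8%. The 7 and 28 day comparisons share their control libraries. Median ratio scaling moved the median of all genes at 7 days from 0.14 to -0.02. Under it all 6 genes were still higher at 7 days, but of the 4 calls only that of Edn3 held, at 1.06 (limma adjusted p = 0.0477). The call of Edn3 at 28 days held under that scaling and under quantile normalization, at 1.79 and 1.62 (limma adjusted p = 0.0193 and 0.0294). These fits kept the filter on low values, which Edn3 passed only through the infused hearts. With no filter Edn3 was called neither at 7 days nor at 28 days (limma adjusted p = 0.0691 and 0.0743).

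Per length, the order of the 6 levels was Ece1, Ednra, Ednrb, Ece2, Edn1 and Edn3 in the controls and at 7 days. In the controls the ranges of Ednrb and Ece2 overlapped, and so did those of Ednrb and Ece2 at 7 days. At 28 days Edn3 had moved above Edn1 on the mean, at 2.00 against 1.91 RPKM, but their ranges overlapped.

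Ratios of 2 genes within a library do not depend on how libraries are scaled to each other. Edn1 exceeded Edn3 by 7.92 and 5.14 times in the controls, by 4.42 and 1.50 times at 7 days, and stood at 1.34 and 0.713 times Edn3 at 28 days. The controls thus had the highest ratios of Edn1 to Edn3, the 28 day libraries had the lowest, and no group overlapped another. In the controls these ratios rest on 6 and 11 implied reads of Edn3. The ratio of Ece1 to Ece2 was 3.145 and 3.148 in the controls, 2.63 and 2.50 at 7 days, and 4.11 and 4.54 at 28 days, again with no overlap. For the receptors the ratio of Ednra to Ednrb was 2.20 and 1.73 in the controls, 1.44 and 1.55 at 7 days, and 1.16 and 1.75 at 28 days. Of the RPKM of both receptors, Ednrb made up 33.9 ± 3.81% in control hearts (SD, n = 2), 40.0 ± 1.28% after 7 days and 41.4 ± 7.08% after 28 days, and the 28 day range overlapped that of the controls. These ratios were not tested, and how often other pairs of genes separate the groups in this way was not counted.

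**Figure D4:**
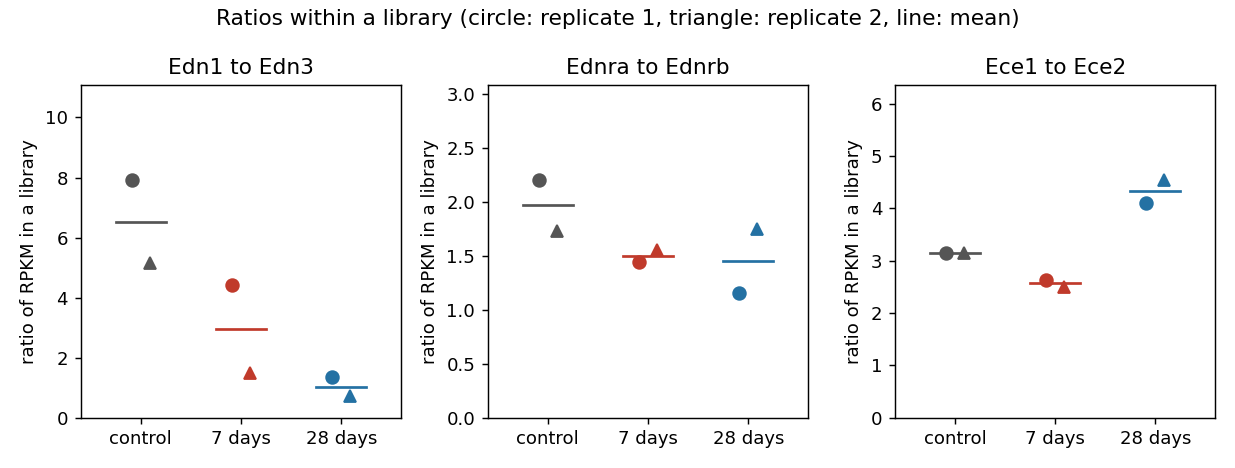
Ratio of the RPKM of 2 genes within each library (vertical axes, from 0) for the ligand, receptor and enzyme genes. Circles are replicate 1, triangles replicate 2 and lines the mean. The Edn1 to Edn3 ratio lies between 5.14 and 7.92 in controls and between 0.713 and 1.34 at 28 days, and the Ece1 to Ece2 ratio is 3.15 in both controls and between 4.11 and 4.54 at 28 days.

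A list of 15 other genes held Edn2 and genes that process or break down endothelins or related peptides. Of these 9 were tested, without Edn2, and 2 rose at 7 days, as 13.2% of all tested genes did. Mmp2, a matrix metalloproteinase that can also cut big endothelin-1, was at 20.9 and 20.3 RPKM in the controls and 48.2 and 54.7 RPKM at 7 days (log2 change 1.30, limma adjusted p = 0.000871). It was back at 21.5 and 22.7 RPKM at 28 days, a fall by 1.20 from 7 days that passed (limma adjusted p = 0.00375). Ctsa, the lysosomal protease cathepsin A, which inactivates endothelin-1, rose by 0.68 at 7 days to 42.7 and 44.9 RPKM (limma adjusted p = 0.00860). Furin was at 11.4 and 11.9 RPKM in the controls and 13.9 and 16.8 RPKM at 7 days, and did not pass (log2 change 0.38, limma adjusted p = 0.0770). Mme, which encodes neprilysin, a peptidase that degrades endothelins, had a log2 change of -0.15 at 7 days and -0.43 at 28 days, and neither passed. Kel, an erythroid enzyme that can release endothelin-3, was listed at 0 in 5 of 6 libraries. At 28 days 0 of the 9 passed in limma against controls, while at an unadjusted p under 0.05 the counts were 2 higher and 0 lower. The share of all tested genes at that unadjusted threshold was not counted. The median of the 9 was 0.38 at 7 days and 0.00 at 28 days.

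Of 38 genes that carry the receptor signal, 33 were tested, and 7 rose and 1 fell at 7 days. Of all tested genes 13.2% rose at 7 days. The largest increases were in Prkcd, a protein kinase C isoform activated by diacylglycerol, at 1.01, in Gnai2, an inhibitory G protein subunit, at 0.73, and in the receptor-desensitising arrestins Arrb1 and Arrb2, at 0.71 and 0.63 (limma adjusted p from 0.00766 to 0.0418). The gene that fell, as 2.27% of all tested genes did, was Rgs2, a brake on Gq signalling, which went from 13.1 and 11.1 RPKM to 7.25 and 7.64 RPKM (log2 change -0.66, limma adjusted p = 0.0155). The Gq subunits themselves, Gnaq and Gna11, had log2 changes of 0.095 and 0.24 and did not pass. At 28 days and between 28 and 7 days 0 of the 33 passed in limma. At an unadjusted p under 0.05 the counts were 4 higher and 3 lower, then 1 higher and 8 lower. The shares of all tested genes at that unadjusted threshold were not counted, so these counts have no background beside them. The median of this list, 0.14 at 7 days, equalled that of all genes.

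Of 20 factors known to act on Edn1 transcription, all tested, 6 rose at 7 days and 3 at 28 days. The shares over all tested genes were 13.2% and 2.87%. Gata4, a cardiac GATA factor, went from 19.7 and 19.1 RPKM to 29.7 and 28.1 RPKM at 7 days and 30.1 and 27.6 RPKM at 28 days, with log2 changes of 0.56 both times (limma adjusted p = 0.0128 and 0.0310). Jund, an AP-1 subunit, rose by 0.61 and 0.80 (limma adjusted p = 0.0338 and 0.0318). Ets1 and Rela, an endothelial ETS factor and a subunit of NF-kappa B, rose at 7 days by 0.77 and 0.61. Klf4, a shear-responsive factor of endothelium, rose by 0.82 at 28 days (limma adjusted p = 0.0482). Between 28 and 7 days Ets1 fell by 0.66 and the hypoxia factor Hif1a by 0.63 (limma adjusted p = 0.0474 and 0.0266). Fos, the AP-1 partner induced early, was at 4.67 RPKM in 7 day replicate 1, the library with the highest Edn1. In replicate 2 it was at 2.29 RPKM, and its log2 difference of 0.86 from controls missed the threshold (limma adjusted p = 0.128). Fos was named after its values were seen, and a link between Fos and Edn1 was not tested.

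Of 26 other vasoactive genes, 18 were tested, 4 rose at 7 days and 1 at 28 days, against 13.2% and 2.87% of all tested genes. The 4 at 7 days were Ace, angiotensin-converting enzyme, at 1.14, Agt, angiotensinogen, at 0.64, Adm, the dilator adrenomedullin, at 0.60, and Ptgis, prostacyclin synthase, at 0.55. Agt also rose at 28 days, by 1.04, to 3.41 and 3.68 RPKM (limma adjusted p = 0.0115). Between 28 and 7 days Apln, the peptide apelin, fell by 1.28 and Ace by 0.92. The list median was 0.16 at 7 days and -0.03 at 28 days.

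**Figure D5:**
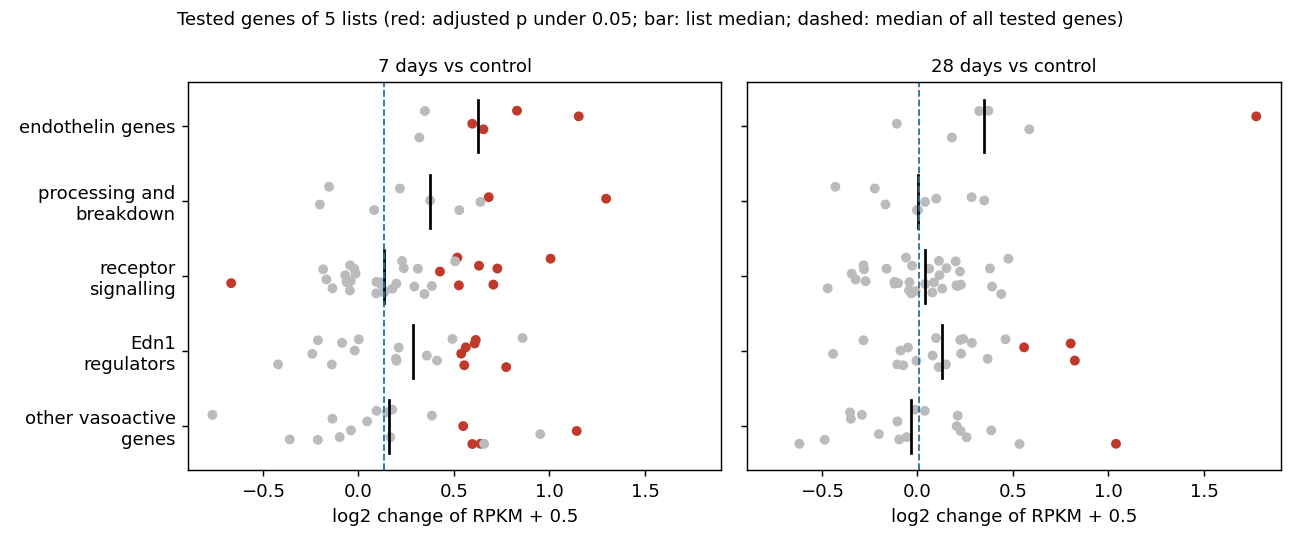
Log2 change of RPKM + 0.5 (horizontal axes) of every tested gene of the endothelin group and of the 4 lists around it, at 7 days and at 28 days against the shared controls. Red points passed at an adjusted p under 0.05, black bars are list medians and the dashed line is the median of all tested genes. The endothelin group has medians of 0.63 and 0.35, and the signalling list lies at 0.14 and 0.04.

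By root mean square difference between log2(RPKM + 0.5) profiles centred on their own means, over the 6 libraries, the tested gene nearest to Edn1 was Gem, a small GTPase that restrains calcium channels, at 0.0756. Polh, a DNA polymerase, and Junb, an AP-1 subunit, followed at 0.0924 and 0.0986. Nearest to Edn3 were Shisa4, the tendon factor Scx and the Z-disc gene Myot, but at larger distances of 0.209, 0.240 and 0.270. Scx, for example, was at 1.31 and 1.92 RPKM in the controls, 5.43 and 6.52 RPKM at 7 days and 5.41 and 9.38 RPKM at 28 days. Nearest to Ece1 was Furin, at 0.0353. Nearest to Ednrb was Slc3a2, an amino acid transporter subunit, at 0.0580, nearest to Ednra was Tmc6, at 0.0462, and nearest to Ece2 was Ptpn6, a phosphatase of blood cells, at 0.0443. With 6 libraries and 11096 genes, close profiles are common, and these are descriptions.

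Markers of other cell types moved in the same libraries. Of all tested genes 13.2% passed as higher and 2.27% as lower at 7 days, and 2.87% as higher at 28 days. Endothelial markers, which mark cells that express Edn1, Ece1 and Ednrb, summed to 337.6 and 321.4 RPKM in the controls, 419.7 and 493.9 RPKM at 7 days, and 322.4 and 415.0 RPKM at 28 days. Of these 13 markers 4 rose at 7 days, Cldn5, Kdr, Emcn and Pecam1, with Cldn5 at 1.43, and 1, Kdr, at 28 days. Fibroblast markers summed to 541.1 and 550.2 RPKM in the controls, 1238 and 1333 RPKM at 7 days, and 631.9 and 578.4 RPKM at 28 days, and 7 of 10 rose at 7 days. Macrophage markers summed to 190.8 and 208.4 RPKM in the controls, 329.8 and 350.2 RPKM at 7 days and 172.6 and 118.9 RPKM at 28 days, and 6 of 8 rose at 7 days. The part of these cells in the changes of the endothelin genes was not tested. Edn3 was highest at 28 days, when fibroblast and macrophage sums were below those at 7 days. Cardiomyocyte sums at 28 days, 48380 and 52310 RPKM, were above the 47800 and 38640 RPKM at 7 days. Atrial sums, 2441 and 3441 RPKM, were also above the 2048 and 2237 RPKM at 7 days, and Nppa made up most of each. Larger differences of Myl7, Myl4 and Sln between these times are given below. What any of these sums means for Edn3 was not tested. Schwann cell and melanocyte markers, cells in which Ednrb is well known, summed to between 5.59 and 8.25 RPKM in all libraries, and 1 of the 3 tested, Dct, rose at 7 days, by 1.03. Smooth muscle and pericyte markers summed to 180.7 and 195.3 RPKM in the controls and 291.5 and 237.3 RPKM at 7 days, 2 of 10 rising and 1 falling, and to 179.5 and 210.8 RPKM at 28 days. Of 4 tested lymphatic endothelial markers 2 rose at 7 days, and of 4 tested mast cell markers 0 passed in limma in any comparison. At an unadjusted p under 0.05, 2 mast cell markers were higher at 7 days and 0 elsewhere, and the share of all genes at that threshold was not counted. Ms4a2 was at 0 in every library.

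Cardiomyocyte markers summed to between 38640 and 52310 RPKM in each library. Atrial markers differed between the controls, at 331.9 RPKM in replicate 1 and 3047 RPKM in replicate 2, and summed to between 2048 and 3441 RPKM in the infused hearts. Nppa, the natriuretic peptide gene, made up most of each sum, with 214.9 and 1605 RPKM in the controls, 1932 and 2084 RPKM at 7 days, and 1648 and 3040 RPKM at 28 days. It was lower in control replicate 1 than in any other library. Myl7, an atrial light chain, was at 52.5 and 646.3 RPKM in the controls, 41.2 and 66.2 RPKM at 7 days, and 341.0 and 181.6 RPKM at 28 days. For Myl7, unlike Nppa, control replicate 1 lay between the 7 day libraries, and control replicate 2 and both 28 day libraries were higher. Myl4 was at 52.6 and 53.0 RPKM at 7 days and 263 and 150 RPKM at 28 days. Sln was at 12.2 and 24.4 RPKM, then 163 and 55.1 RPKM. Between 28 and 7 days the median log2 change of the 5 tested atrial markers was 1.90, against -0.12 over all tested genes, and 0 passed in limma. Of the endothelin genes Edn1, Edn3, Ednra and Ednrb were higher in control replicate 2 than in replicate 1, and Ece1 and Ece2 were slightly lower. Against control replicate 1 alone, the 7 day increases of Edn1, Edn3, Ednrb and Ece2 were 0.90, 1.27, 0.85 and 0.59 (limma adjusted p = 0.135, 0.0946, 0.0486 and 0.170). The part of atrial tissue was not tested. Implied depth was between 10900000 and 14300000 reads a library, highest in the 7 day group.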

How the data were processed

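Per the file headers, the authors deposited RPKM per gene and library. The submitters' processing notes name, with no roles, the builds mm8 and mm9, Bowtie 0.12.9, TopHat2 2.0.12, DESeq2 and HTSeq. Annotation, RPKM tool and strand setting: not given in the sources used here. They were analysed as log2(RPKM + 0.5), keeping genes with a mean of at least 1 RPKM. Limma 3.58.1 (R 4.3.3) fitted group means over all 6 libraries with moderated variances and a mean-variance trend, with 3 residual and 4.21 prior degrees of freedom, and p-values were adjusted by Benjamini-Hochberg over 11096 genes. Fits with a library left out or rescaled kept these genes. The fit was tested on simulated data.

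The members, lists and tests were chosen with earlier results of these data known. Named genes were the 6 members, up to 4 passing genes in each direction per list and comparison, those with the largest change, and the 3 nearest profiles per member, without predicted genes. Genes named outside that rule (Furin, Mme, Kel, Edn2, Gnaq, Gna11, Fos and the markers) were chosen after their values were seen.

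For relative depth, the commonest ratio between a library and control replicate 1 among low genes (mean RPKM under 0.5) was taken. Of 4352 low genes, 50.0% had values that were whole multiples of 1 step within 0.03 of a read, with at most 15 reads in the lowest library above 0. With GENCODE M21 lengths of 419 single-transcript genes, that step gave 12300000 reads for control replicate 1 (quartiles 11600000 and 12800000). Intervals cover counting error only. Sequences are from RefSeq (GRCm38.p6), where all 6 members matched, and motifs were searched with Python 3.11.15. Nothing in the sources used here states whether replicate numbers pair the samples, so no pairing was assumed. The replicate differences of the groups correlated at 0.15, -0.02 and -0.01, which cannot decide it.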

Additional observations from a re-analysis of the deposited data

How the results depend on the processing

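All 24 results were recomputed under up to 16 other settings. At 7 days all 6 endothelin genes stayed higher than in the controls under every setting in which they were tested, while their calls depended on the setting. Without a filter on low values more genes are tested. At an unadjusted p under 0.05 the endothelin counts were then 5, 3 and 1, and the shares of all genes at that threshold were not counted. After adjustment 0 endothelin genes passed in limma in any comparison. Then Edn1, Edn3, Ednrb and Ece2 had changes of 0.83, 1.15, 0.66 and 0.60 at 7 days. Edn3 was at 1.77 at 28 days and Ece2 at -0.70 at 28 against 7 days. Limma adjusted p for these changes ran from 0.0691 to 0.104. Of the 17585 genes then tested, 1337, 61 and 264 passed in the 3 comparisons. A mean of at least 5 RPKM leaves out Edn1, Edn3 and Ece2. With it 1, 0 and 0 endothelin genes passed in the 3 comparisons, against 1155, 417 and 295 of the 6552 genes tested. Median ratio scaling left 1 call at 7 days and 0 at 28 against 7 days, against 1160 and 281 of all genes. Edn1 was then at 0.69, Ednrb at 0.50 and Ece2 at 0.44 and -0.56. Quantile normalization left 0 and 0, against 1228 and 265 of all genes. With it Edn1 was at 0.65, Edn3 at 0.77, Ednrb at 0.49 and Ece2 at 0.42 and -0.53. Between 28 and 7 days Ece1, Ednrb and Ednra, none of them called, turned from below to above 0 with median ratio scaling, at 0.13, 0.075 and 0.0083, and with quantile normalization, at 0.084, 0.10 and 0.026. Higher genes made up 85.3% of all calls at 7 days as deposited, 61.2% with median ratio scaling and 57.1% with quantile normalization, and 8.69%, 22.8% and 20.8% at 28 against 7 days. Without a trend, with only the 2 groups compared, and with a replicate block, the call of Ece2 at 28 against 7 days was lost at -0.70 (adjusted p = 0.0546, 0.0979 and 0.0692), leaving 0. The replicate block also ended the call of Ece2 at 7 days, at 0.60 (adjusted p = 0.0535), and no other endothelin call. The block is not taken as a paired design, as nothing states whether the replicate numbers pair the samples. With only the 2 groups compared, 234 and 287 of all genes passed at 28 days and at 28 against 7 days. With an unadjusted p under 0.05 and a fold threshold of 2 (1.5 for 28 days against controls), 445, 808 and 277 of all genes and 1, 2 and 0 endothelin genes passed. By that rule Edn1, Ednrb and Ece2 missed the fold at 7 days, at 0.83, 0.66 and 0.60, as did Ece2 at 28 against 7 days, at -0.70, and Ednrb passed at 28 days, at 0.59.

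With each library left out in turn, all genes passing ranged from 392 to 2252 at 7 days, from 33 to 384 at 28 days and from 27 to 689 at 28 against 7 days, and endothelin genes passing from 0 to 4, from 0 to 1 and from 0 to 0. At 7 days Edn1 ranged from 0.53 to 1.13, Edn3 from 0.86 to 1.45, Ednrb from 0.46 to 0.85 and Ece2 from 0.40 to 0.79, with adjusted p up to 0.214, 0.170, 0.224 and 0.188. At 28 days Edn3 ranged from 1.51 to 2.03 (adjusted p from 0.0272 to 0.152) and Ednra from -0.17 to 0.54. At 28 against 7 days Ece2 ranged from -0.90 to -0.51, Ednra from -0.49 to 0.22, Ednrb from -0.16 to 0.024 and Ece1 from -0.19 to 0.14. The lone sample of a group was assumed to vary like the others. The causes of these shifts were not tested. Depth limits Edn3 most, with 6 and 11 implied reads in the controls.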
